A study of Mus musculus with 12 samples.

Results

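The cytochrome P450 genes of families 2, 3 and 4 were followed in RNA-seq libraries of liver, quadriceps muscle, white adipose tissue (WAT) and brown fat (BAT) of male C57BL/6J mice. A gene was counted as a member when its symbol consisted of Cyp, the family number 2, 3 or 4, a subfamily letter and a gene number, and when it reached 1 FPKM (fragments per kilobase of transcript, scaled to the mapped fragments of the library) in at least 1 of the 12 libraries. Of the 22276 symbols in the expression table, 66 had such a name and 53 of them reached 1 FPKM. The lowest members by their highest value were Cyp2c55 at 1.14 FPKM and Cyp2b13 at 1.47 FPKM, and the highest genes below the limit were Cyp2g1 at 0.805 FPKM and Cyp4f40 at 0.659 FPKM. The 13 genes below the limit were Cyp2b19, Cyp2b23, Cyp2c65, Cyp2c66, Cyp2g1, Cyp2j8, Cyp2j11, Cyp2j12, Cyp2j13, Cyp2t4, Cyp2w1, Cyp4f40 and Cyp4x1. Cyp4a10 and Cyp4a14 were left out by definition, and genes with a further letter in their symbol, such as Cyp4a12a and Cyp4a12b, lay outside it. By subfamily the members comprised 13 Cyp2c, 7 Cyp2d, 7 Cyp3a, 7 Cyp4f, 4 Cyp2a, 3 Cyp2b, 3 Cyp2j and 2 Cyp4a genes, and a single gene each of Cyp2e, Cyp2f, Cyp2r, Cyp2s, Cyp2u, Cyp4b and Cyp4v.

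From 8 weeks of age the animals ate normal chow (NCD) or food rich in fat (HFD), and all tissues came from animals aged 17 weeks. From 10 weeks of age, for 7 weeks, they received by weekly gavage either vehicle (veh) or narciclasine (ncls), a plant alkaloid. Each organ was represented by 3 libraries, NCD-veh, HFD-veh and HFD-ncls, and thus by 1 library per group. How many animals gave RNA to a library is not given in the sources used here. The HFD-veh library therefore stood on both sides of the analysis, as the outcome of the diet comparison and as the control of the ncls comparison, and a value particular to that library would move both. Where 3 values are given in a row without further labels, they follow the order NCD-veh, HFD-veh, HFD-ncls. No test between groups was possible, none of the differences below has a replicate check, and they are differences between libraries.

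P450 enzymes are haem-containing monooxygenases, most of which sit in the membrane of the endoplasmic reticulum and take electrons from P450 oxidoreductase. In liver, enzymes of families 2 and 3 oxidise drugs, other foreign compounds, steroids and bile acids, and they are most abundant in hepatocytes around the central vein. Several Cyp2c and Cyp2j enzymes also convert arachidonic acid to epoxides, and enzymes of family 4 hydroxylate fatty acids at or near the terminal carbon. Many of the genes lie in tandem clusters, are induced through the receptors CAR (Nr1i3) and PXR (Nr1i2), and in rodents differ between the sexes under the control of pulsatile growth hormone secretion.

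In the mm9 genome the Cyp2c members lay on chromosome 19 (13 genes), the Cyp3a members on chromosome 5 (7 genes) and the Cyp2a, Cyp2b, Cyp2e, Cyp2f, Cyp2r and Cyp2s members on chromosome 7 (11 genes). The Cyp2b and Cyp3a subfamilies held 6 of the 8 members past 2-fold in liver with diet, so the 250 bases upstream of the RefSeq transcription start of 3 Cyp2b and 5 Cyp3a members are given 5′ to 3′, to show which of these neighbours have similar promoters. Capitals mark AGGTCA and AGTTCA, the half-sites bound by many nuclear receptors, searched on both strands, and CAAAGTCCA, a core recognised by HNF4A, also searched on both strands. On chromosome 5, the window of Cyp3a11 lay at chr5:146691431-146691680, that of Cyp3a44 at chr5:146617451-146617700, that of Cyp3a25 at chr5:146821194-146821443 and that of Cyp3a13 at chr5:138362848-138363097, all on the minus strand, and that of Cyp3a59 at chr5:146890584-146890833 on the plus strand.
Cyp3a11: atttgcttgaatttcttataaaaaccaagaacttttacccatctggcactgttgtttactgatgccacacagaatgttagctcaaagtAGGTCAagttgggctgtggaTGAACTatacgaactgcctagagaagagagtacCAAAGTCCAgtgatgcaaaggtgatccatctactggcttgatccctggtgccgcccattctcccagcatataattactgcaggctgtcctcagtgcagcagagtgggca
Cyp3a44: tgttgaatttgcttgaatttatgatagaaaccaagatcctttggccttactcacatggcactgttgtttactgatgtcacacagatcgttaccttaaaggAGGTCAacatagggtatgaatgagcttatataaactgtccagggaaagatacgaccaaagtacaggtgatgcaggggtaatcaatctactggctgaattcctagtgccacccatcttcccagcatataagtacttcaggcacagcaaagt
Cyp3a25: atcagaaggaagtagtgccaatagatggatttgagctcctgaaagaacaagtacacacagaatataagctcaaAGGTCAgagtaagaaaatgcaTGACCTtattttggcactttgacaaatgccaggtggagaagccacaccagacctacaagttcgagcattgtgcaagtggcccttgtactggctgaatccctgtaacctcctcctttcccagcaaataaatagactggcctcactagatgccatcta
Cyp3a59: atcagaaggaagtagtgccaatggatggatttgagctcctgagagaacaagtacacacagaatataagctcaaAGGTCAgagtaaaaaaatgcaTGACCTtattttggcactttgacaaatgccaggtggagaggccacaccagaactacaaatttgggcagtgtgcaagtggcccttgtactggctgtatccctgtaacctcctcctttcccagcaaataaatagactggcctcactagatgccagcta
Cyp3a13: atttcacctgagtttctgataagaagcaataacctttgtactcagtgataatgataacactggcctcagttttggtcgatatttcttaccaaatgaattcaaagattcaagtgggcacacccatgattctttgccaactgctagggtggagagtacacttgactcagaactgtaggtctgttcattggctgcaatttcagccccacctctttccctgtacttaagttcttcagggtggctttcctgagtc

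The Cyp2b promoters lay on the plus strand of chromosome 7, that of Cyp2b9 at chr7:26958178-26958427, that of Cyp2b13 at chr7:26846264-26846513 and that of Cyp2b10 at chr7:26682427-26682676.
Cyp2b9: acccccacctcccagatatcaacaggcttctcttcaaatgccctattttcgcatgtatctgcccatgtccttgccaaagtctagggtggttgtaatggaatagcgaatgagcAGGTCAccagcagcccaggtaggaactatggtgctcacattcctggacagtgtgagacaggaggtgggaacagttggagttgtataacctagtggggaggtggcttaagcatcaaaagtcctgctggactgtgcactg
Cyp2b13: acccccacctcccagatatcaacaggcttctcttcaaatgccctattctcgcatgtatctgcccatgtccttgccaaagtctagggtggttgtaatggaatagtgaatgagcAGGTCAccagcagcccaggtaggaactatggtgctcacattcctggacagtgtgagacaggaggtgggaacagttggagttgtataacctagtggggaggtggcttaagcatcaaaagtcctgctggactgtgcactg
Cyp2b10: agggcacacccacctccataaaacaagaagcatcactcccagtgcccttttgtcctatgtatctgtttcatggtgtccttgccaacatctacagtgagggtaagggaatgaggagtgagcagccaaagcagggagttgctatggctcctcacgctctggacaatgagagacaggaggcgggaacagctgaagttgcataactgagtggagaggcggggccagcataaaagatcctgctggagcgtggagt

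The windows of Cyp2b9 and Cyp2b13 were identical at 99.2% of positions, and each matched that of Cyp2b10 at 70.0%. The Cyp3a windows formed separate sets. Those of Cyp3a11, Cyp3a16 and Cyp3a44 matched each other at 70.8% to 92.8% of positions, those of Cyp3a25, Cyp3a57 and Cyp3a59 at 88.0% to 95.6%, and members of different sets at 50.8% to 53.6%. The window of Cyp3a13, which lies away from the other Cyp3a members on chromosome 5, matched the others at 46.8% to 55.6% and held none of the marked letters. The AGGTCA half-site occurred in 12 of the 44 members with a window in the table (27.3%) and in 15.8% of 27025 genes, AGTTCA in 8 members (18.2%) and in 13.4% of genes, and CAAAGTCCA in 7 members (15.9%) and in 0.451% of genes. The members with CAAAGTCCA were Cyp2c40, Cyp2c67, Cyp2c68, Cyp2c69, Cyp2c70, Cyp3a11 and Cyp3a16, among which Cyp2c67, Cyp2c68 and Cyp2c69 share 96.5% to 97.7% of their coding bases. Other patterns were searched as well. The paired half-sites DR1 and DR4 each occurred in 0 of the 44 members, and in 0.0407% and 0.0111% of genes. The site of STAT5, a factor of the growth hormone pathway, occurred in 2 members (4.55%) and in 8.13% of genes. The TATA box occurred in 18 members (40.9%) and in 14.3% of genes. These matches describe letters in a short window. The windows of Cyp3a11 and Cyp2b10 reach into the GENCODE gene model, which starts further upstream than the RefSeq one.

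The libraries carried about 18900000 to 26400000 fragments each, estimated from the smallest steps of the FPKM values. The 3 liver libraries, with 22800000 to 23300000 fragments, held hepatocyte transcripts such as Apoa1 (9999 to 13444 FPKM), and the muscle libraries held Ckm (15744 to 16456 FPKM). Some libraries also held RNA typical of another organ. In the HFD-veh liver library all 10 skeletal muscle transcripts of a list of 12 that reached 1 FPKM there were over 2-fold higher than in NCD-veh liver, and the 11 listed transcripts with a value in every library summed to 66.6 FPKM, compared with 2.42 in NCD-veh and 3.46 in HFD-ncls liver, in each of which 6 were at 0. Conversely, the HFD-veh muscle library held hepatocyte transcripts at a median of 0.553% of their level in HFD-veh liver (17 genes, 0.308% to 0.759%), compared with 0.00207% in NCD-veh and 0.000557% in HFD-ncls muscle. In WAT the same share was 0.00151% under NCD-veh, 0.0744% under HFD-veh and 0.236% under HFD-ncls. Because members are abundant in liver, these shares are taken up again beside the values in muscle and WAT.

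Liver was the organ with the highest value for 47 of the 53 members. The exceptions were Cyp2b10 and Cyp4b1 in BAT, Cyp2s1, Cyp4f16 and Cyp4f18 in WAT, and Cyp4f39 in muscle. In the liver libraries the members together took 2.14% of the summed FPKM under NCD-veh, 2.30% under HFD-veh and 1.76% under HFD-ncls, whereas in the other organs they took at most 0.337%. A single gene, Cyp2e1, which oxidises ethanol, acetone and other small molecules, supplied 34.1%, 43.2% and 41.2% of the members' summed FPKM in the respective liver libraries.

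**Figure D1:**
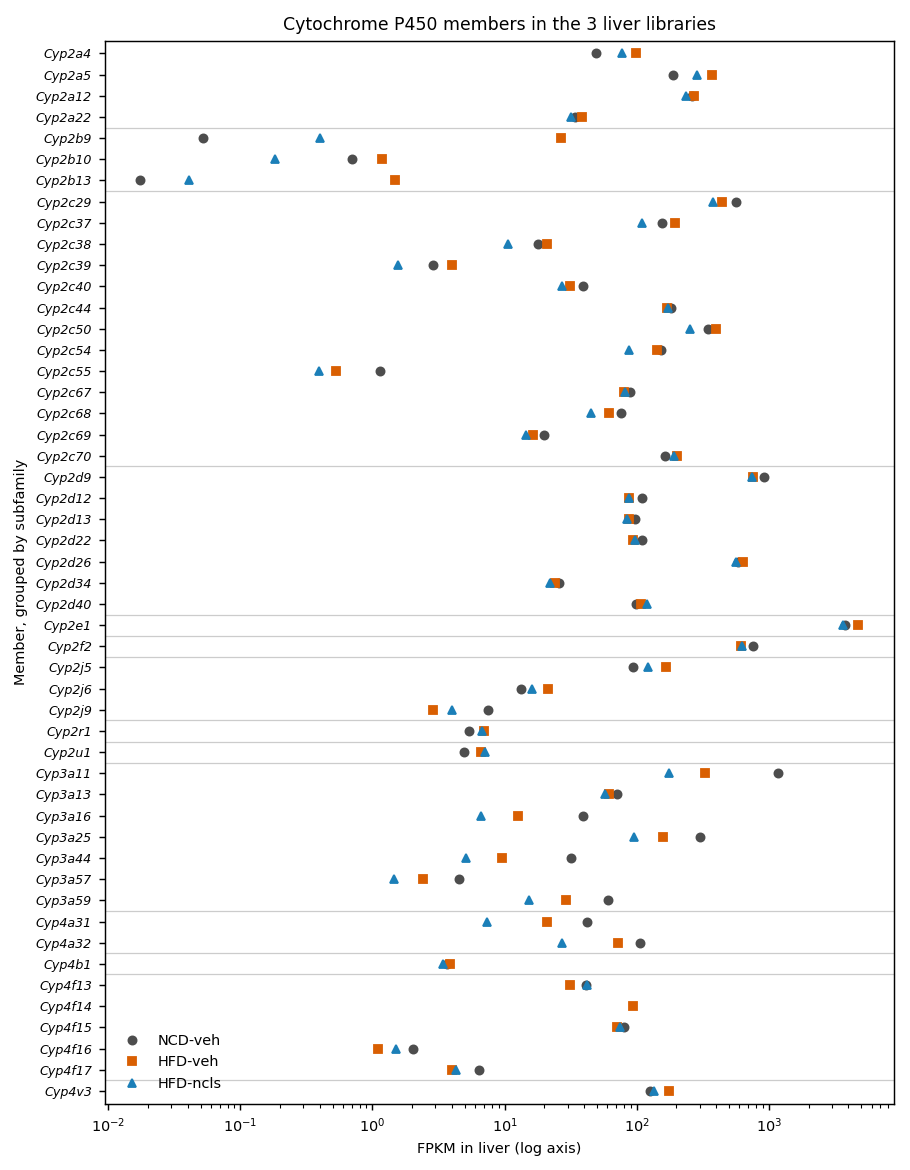
FPKM of the members that reached 1 FPKM in a liver library (log axis), grouped by subfamily, with a grey circle for NCD-veh, an orange square for HFD-veh and a blue triangle for HFD-ncls (1 library each). The Cyp3a genes stepped down from NCD-veh to HFD-veh to HFD-ncls, Cyp3a13 the least, while Cyp2b9 stood at 27.0 FPKM in HFD-veh and below 1 FPKM in the other libraries. Cyp4f14 has a value in HFD-veh only.

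Among the most abundant members, Cyp2e1 stood at 3762 FPKM under NCD-veh, 4779 under HFD-veh and 3620 under HFD-ncls in liver. Cyp2d9, a steroid hydroxylase typical of male liver, stood at 921, 763 and 750 FPKM, and Cyp2f2, which oxidises naphthalene, at 764, 612 and 626 FPKM. Cyp2d26 stood at 588, 635 and 567 FPKM. These genes kept their order of magnitude across the libraries, with differences of at most 0.40 on the log2 scale in the diet and ncls comparisons. Cyp3a11, the main drug-oxidising Cyp3a enzyme of mouse liver, did not: it ranked second among the members in NCD-veh liver at 1165 FPKM and stood at 330 and 177 in the other libraries.

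The diet comparison set HFD-veh against NCD-veh liver, with differences taken on the scale of log2(FPKM + 0.1), which understates the change of genes near 0. Of the 53 members, 49 reached 1 FPKM in at least 1 of the 2 libraries. Among those, 3 were over 2-fold higher and 5 over 2-fold lower in HFD-veh, beside 2.86% and 2.27% of the 10016 genes that passed the same limit. Among the members the median difference was -0.15, and it was 0.04 over all those genes. By subfamily the lower members were concentrated in Cyp3a (4 of 7) and the higher members in Cyp2b (2 of 3). Of the libraries compared, the 3 Cyp2b genes reached 1 FPKM in HFD-veh alone, which fixed their direction.

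All 7 Cyp3a genes were lower in HFD-veh than in NCD-veh liver, with differences from -1.82 to -0.21 and a median of -1.05, and their summed level stood at 1673 FPKM in NCD-veh and 605 FPKM in HFD-veh. Cyp3a11 differed by -1.82, Cyp3a44 by -1.72 (31.7 and 9.59 FPKM) and Cyp3a16 by -1.62 (39.0 and 12.6 FPKM). These were the genes whose promoter windows formed the first set. The genes of the second set differed less, Cyp3a59 by -1.05 (60.7 and 29.3 FPKM), Cyp3a25 by -0.92 (301 and 159 FPKM) and Cyp3a57 by -0.87 (4.48 and 2.41 FPKM). Cyp3a13 stood at 71.3 and 61.5 FPKM, a difference of -0.21. Its window matched the others at 46.8% to 55.6%, much as the sets matched each other (50.8% to 53.6%). Cyp3a16 and Cyp3a44 are known as enzymes of fetal and female liver, and in these males they were listed at more than 10 FPKM in NCD-veh. Cyp3a11, similar in coding bases, stood at 1165 FPKM there, and expression of both genes apart from its reads was not tested. Cyp3a11, Cyp3a16 and Cyp3a44 share 92.5% to 94.9% of their coding bases, and Cyp3a25, Cyp3a57 and Cyp3a59 share 93.9% to 97.5%. How reads that fit more than 1 gene of a set were shared out is not given in the sources used here. The similar differences within each set are not independent values, and a link between promoter sequence and the size of a difference was not tested.

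Cyp2b9, a female-typical gene of the CAR-inducible Cyp2b subfamily, was the member with the largest difference. It stood at 0.0525 FPKM in NCD-veh and 27.0 FPKM in HFD-veh liver, or about 2.29 and 1156 fragments, a difference of 7.47 on the log2 scale that depended on the pseudocount (4.73 with a pseudocount of 1). Cyp2b13, its neighbour with the nearly identical promoter window and 92.5% identical coding bases, stood at 0.0175 and 1.47 FPKM, or about 0.765 and 63.2 fragments, a difference of 3.74. How reads that fit both Cyp2b9 and Cyp2b13 were shared out is not given in the sources used here, and their values are not independent. Both genes passed the limit of 1 FPKM through the HFD-veh library alone and so could enter the comparison only by being higher there. Cyp2b10, the classical CAR target, stood at 0.697 and 1.17 FPKM, a difference of 0.68 that did not reach 2-fold. Of the libraries compared, it too reached 1 FPKM in HFD-veh alone, which fixed its direction. The HFD-veh liver library also held the muscle transcripts described above. Cyp2b9 was listed at 0 in NCD-veh and HFD-ncls muscle and at 0.272 FPKM in HFD-veh muscle, and Cyp2b13 at 0 in all 3 muscle libraries.

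The other subfamilies differed less with diet. All 4 Cyp2a genes were higher in HFD-veh, with a median of 0.58: Cyp2a4, a steroid hydroxylase typical of female liver, stood at 49.1 and 98.8 FPKM (1.01) and Cyp2a5, the coumarin hydroxylase, at 188 and 374 FPKM (0.99), while Cyp2a12 (0.04) and Cyp2a22 (0.17) barely differed. Cyp2a4 and Cyp2a5 share 98.5% of their coding bases and cannot be separated well by short reads. The 13 Cyp2c genes, among them the epoxygenases, had a median of -0.12 with 5 higher and 8 lower, and none passed 2-fold. Cyp2c29 stood at 562 and 446 FPKM (-0.34), Cyp2c50 at 349 and 396 FPKM (0.18), and Cyp2c55 came nearest to the limit at 1.14 and 0.526 FPKM (-0.98). The 7 Cyp2d genes had a median of -0.15, within -0.32 to 0.12. Within Cyp2j the genes went apart: the epoxygenase Cyp2j5 stood at 93.3 and 166 FPKM (0.83) and Cyp2j6 at 13.4 and 21.4 FPKM (0.67), whereas Cyp2j9 stood at 7.47 and 2.86 FPKM (-1.36). The fatty acid hydroxylases of the Cyp4a and Cyp4f subfamilies were lower in all 6 genes that reached 1 FPKM and had a value in both libraries, Cyp4a31 at 41.7 and 21.1 FPKM (-0.98), Cyp4a32 at 105 and 72.0 FPKM (-0.55), and the Cyp4f genes from -0.82 to -0.17. Cyp4v3, which acts on long-chain fatty acids, was 126 and 176 FPKM (0.49).

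**Figure D2:**
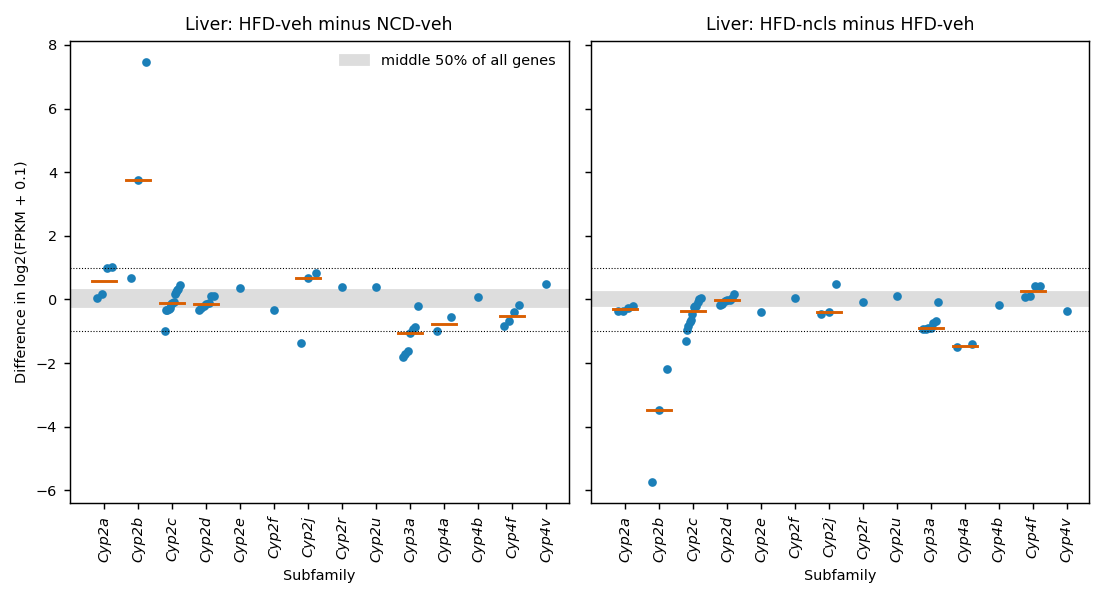
Differences of the members in liver on the scale of log2(FPKM + 0.1), by subfamily, for HFD-veh minus NCD-veh (left) and HFD-ncls minus HFD-veh (right). Each point is a gene, the orange bar is the subfamily median, the grey band holds the middle 50% of all genes that passed 1 FPKM and the dotted lines mark 2-fold. The Cyp2b genes lie above 0 on the left and below 0 on the right, directions that were fixed because they reached 1 FPKM in HFD-veh liver alone. The Cyp3a and Cyp4a genes lie below 0 in both panels, which share the HFD-veh library.

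The ncls comparison set HFD-ncls against HFD-veh liver. Of the 53 members, 48 had a value in both libraries and reached 1 FPKM in at least 1, and among those none was over 2-fold higher and 6 were over 2-fold lower, beside 1.00% and 1.31% of 9956 genes. Of the 48 members, 37 lay below 0 and 11 above, with a median of -0.25. Over all genes 47.6% lay below 0 and the median was 0.02. The members past 2-fold were the 3 Cyp2b genes, both Cyp4a genes and Cyp2c39. The Cyp2b genes reached 1 FPKM in HFD-veh alone and so could enter the comparison only by being lower with ncls.

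Cyp2b9 stood at 27.0 and 0.403 FPKM in these libraries, about 17.6 fragments in the latter, a difference of -5.75. Cyp2b13 stood at 1.47 and 0.0409 FPKM (-3.48). Cyp2b10 stood at 1.17 and 0.182 FPKM (-2.18), with about 51.3 and 8.08 fragments, and with a pseudocount of 1 its difference of -0.88 no longer reached 2-fold. All 3 genes were below 1 FPKM in both NCD-veh and HFD-ncls. Cyp2b9 was higher in HFD-ncls than in NCD-veh, at about 17.6 and 2.29 fragments, and Cyp2b10 was lower, at about 8.08 and 31.1 fragments.

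Both Cyp4a members were lower still with ncls. Cyp4a31 stood at 21.1 and 7.42 FPKM in these libraries (-1.50), and Cyp4a32 at 72.0 and 27.1 FPKM (-1.40). They share 96.0% of their coding bases. The left-out Cyp4a10 stood at 438, 277 and 80.8 FPKM and Cyp4a14 at 326, 233 and 32.6 FPKM, whereas Cyp4a12a, a male-typical hydroxylase outside the definition that was picked after its values were seen, stood at 65.1, 58.8 and 83.9 FPKM. The Cyp4f genes lay on the other side of 0 from Cyp4a, all 4 that reached 1 FPKM being higher in HFD-ncls by 0.08 to 0.42, none of them past 2-fold.

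With ncls all 7 Cyp3a genes were lower as well, by -0.93 to -0.08 with a median of -0.90, none past 2-fold. Cyp3a59 (15.4 FPKM in HFD-ncls, -0.93), Cyp3a16 (6.64 FPKM, -0.91), Cyp3a44 (5.11 FPKM, -0.90) and Cyp3a11 (177 FPKM, -0.90) lay close together, followed by Cyp3a25 (95.4 FPKM, -0.74) and Cyp3a57 (1.46 FPKM, -0.69). Cyp3a59 belongs to the second promoter set, so the order by set seen with diet did not recur. Cyp3a13, at 58.0 FPKM (-0.08), was again the exception. The summed Cyp3a level stood at 359 FPKM in HFD-ncls.

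In the Cyp2c subfamily 10 of 12 genes were lower with ncls, with a median of -0.35. Cyp2c39, which hydroxylates retinoic acid, stood at 3.97 and 1.55 FPKM (-1.30), Cyp2c38 at 21.0 and 10.7 FPKM (-0.97), Cyp2c37 at 195 and 109 FPKM (-0.84), Cyp2c54 at 142 and 86.9 FPKM (-0.71) and Cyp2c50 at 396 and 255 FPKM (-0.64). By contrast Cyp2c44 stood at 171 and 173 FPKM and Cyp2c67 at 79.5 and 81.4 FPKM. Thus the subfamily was not uniform. Cyp2c37, Cyp2c50 and Cyp2c54 share 95.1% to 96.1% of their coding bases, and their values are not independent of each other. The Cyp2a genes were lower by 0.21 to 0.37 on the log2 scale, all 4 of them. The Cyp2d genes stayed within -0.16 to 0.17 of 0, and Cyp2e1 differed by -0.40.

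With HFD-ncls set against NCD-veh liver, which leaves out the HFD-veh library, 46 members reached 1 FPKM. None was over 2-fold higher and 9 were over 2-fold lower, beside 2.58% and 2.62% of 9961 genes. The 9 were Cyp3a11 (-2.72), Cyp3a44 (-2.61), Cyp3a16 (-2.54), Cyp4a31 (-2.48), Cyp3a59 (-1.97), Cyp4a32 (-1.95), Cyp3a25 (-1.66), Cyp3a57 (-1.55) and Cyp2c55 (-1.32). Of these, Cyp2c55 reached 1 FPKM in NCD-veh alone and so could enter only by being lower. The Cyp3a and Cyp4a levels were therefore lower in the HFD-ncls library than in both other liver libraries, and the Cyp3a difference between HFD-ncls and NCD-veh did not rest on the library that held muscle transcripts. Cyp2a5 (0.62) and Cyp2a4 (0.65) stayed higher than in NCD-veh. No Cyp2b gene reached 1 FPKM in either of those libraries.

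Read by known function, the members that CAR or PXR can induce included 3 over 2-fold lower and none higher of 13 with ncls (median -0.84), and with diet 2 higher and 3 lower of 14. These counts stand beside 1.31% lower and 1.00% higher over all genes with ncls, and 2.86% higher and 2.27% lower with diet, and the 3 with ncls were the Cyp2b genes that passed the limit through HFD-veh alone. Of the members typical of female liver, 3 of 8 were over 2-fold lower with ncls and none higher (median -0.90). Those lower were Cyp2b9, Cyp2b13 and Cyp2c39. With diet 3 of 8 were higher and 2 lower, the latter being Cyp3a16 and Cyp3a44, which resemble Cyp3a11 in coding bases. The same shares over all genes stand beside these counts. Cyp2b9 and Cyp2b13 passed the limit through HFD-veh alone, which fixed their direction in both comparisons. They were also the 2 inducible members higher with diet. The male-typical members Cyp2d9, Cyp2j5 and Cyp2u1 did not pass 2-fold in either comparison. The 7 members known from pericentral hepatocytes had a median of 0.18 with diet and -0.64 with ncls. These groups overlap and hold the same Cyp2b and Cyp3a genes several times.

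Of 14 receptors and transcription factors that regulate these genes, none passed 2-fold in liver with diet or with ncls. Nr1i2 (PXR) stood at 28.4, 26.5 and 27.6 FPKM and Nr1i3 (CAR) at 123, 115 and 85.7 FPKM, and Hnf4a at 162, 105 and 131 FPKM. The corepressor Nr0b2 (SHP), at 54.6, 35.8 and 22.6 FPKM, was over 2-fold lower when HFD-ncls was set against NCD-veh. Of 13 targets of CAR and PXR other than P450 genes, 1 (Tsku) was over 2-fold higher and 1 (Gadd45b) lower with diet, and none of the 12 that reached 1 FPKM passed 2-fold with ncls, where their median was -0.35. Among the genes of the growth hormone pathway 2 of 10 were over 2-fold higher and 1 lower with ncls. The shares over all genes beside the counts here were 1.00% higher and 1.31% lower with ncls, and 2.86% and 2.27% with diet. Bcl6, a repressor of female-typical genes in male liver, stood at 13.3, 14.3 and 2.39 FPKM, Cish, a feedback inhibitor induced by growth hormone, at 2.47, 3.02 and 13.5 FPKM, and Onecut1 (HNF6), a transcription factor of hepatocytes, at 2.75, 4.66 and 10.5 FPKM. None of the 9 male-typical genes that are not members passed 2-fold with ncls, and with diet Elovl3 (154 and 41.3 FPKM) and Serpina1e (10319 and 5060 FPKM) were lower. Of 8 other female-typical genes only Atp6v0d2 reached 1 FPKM (2.99, 1.54 and 1.24 FPKM).

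Of the genes that serve P450 enzymes, Alas1, the first enzyme of haem synthesis, stood at 63.8 FPKM under NCD-veh, 211 under HFD-veh and 373 under HFD-ncls in liver. It was the only 1 of 11 such genes to pass 2-fold with diet, and none passed with ncls. Por, the electron donor of the microsomal enzymes, stood at 133, 200 and 231 FPKM, and Hpx, which carries haem in plasma, at 6697, 1915 and 2381 FPKM. The order of Alas1 and Por across the libraries was thus opposite to that of the Cyp3a sum. Genes of zonated expression outside the families did not pass 2-fold, apart from the periportal Hal, at 158 FPKM in NCD-veh and 66.9 in HFD-veh. The median over 10 other pericentral genes was 0.38 with diet and -0.21 with ncls.

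In WAT the members reached far lower levels, except for Cyp2e1, which stood at 1053 FPKM under NCD-veh, 438 under HFD-veh and 409 under HFD-ncls. Of 15 members at 1 FPKM or more in NCD-veh or HFD-veh WAT, 2 were over 2-fold higher and 3 lower with diet, beside 5.24% and 3.87% of 12208 genes. Cyp2f2 stood at 11.8 and 1.14 FPKM (-3.26), Cyp2e1 differed by -1.26, and Cyp2s1, a P450 of epithelia that metabolises retinoids, stood at 8.70 and 4.16 FPKM (-1.05). Cyp2r1, a vitamin D 25-hydroxylase, stood at 0.647 and 1.97 FPKM (1.47), and Cyp2c44 at 0.398 and 1.71 FPKM (1.87). Of the libraries compared, both reached 1 FPKM in HFD-veh alone and so could enter only by being higher there. Cyp4v3 (46.1 and 54.7 FPKM) and Cyp4b1 (16.5 and 29.2 FPKM) were next to Cyp2e1 in level and stayed within 2-fold. In the same comparison 4 of 7 macrophage transcripts were over 2-fold higher and none lower, Cd68 standing at 49.5 and 198 FPKM. Of 10 adipocyte transcripts, 1 (Lep) was over 2-fold higher and 1 (Cfd) over 2-fold lower, with a median of -0.28. The part of a shift in cell makeup in these values was not tested, and in bulk tissue fewer cells of a type and less RNA per cell cannot be told apart.

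**Figure D3:**
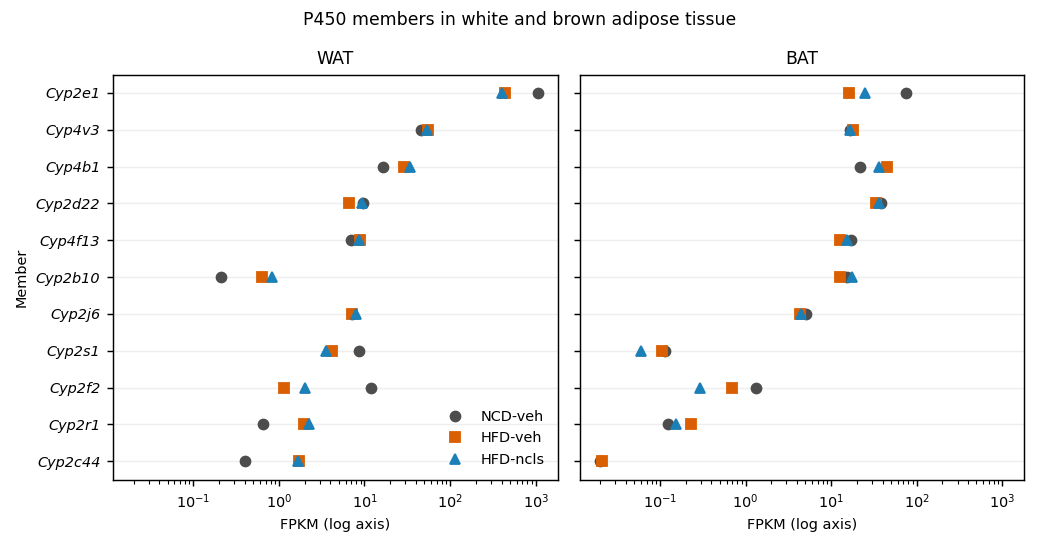
FPKM (log axis) of 11 members in WAT (left) and BAT (right), with a grey circle for NCD-veh, an orange square for HFD-veh and a blue triangle for HFD-ncls (1 library each; a value of 0 is not drawn). Cyp2e1 was highest in NCD-veh in both fat depots, and Cyp4b1 was lowest there.

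With ncls, 3 of 18 members were over 2-fold higher in WAT and none lower, beside 1.49% and 0.214% of 12152 genes. The 3 were genes otherwise found in liver: Cyp2a5 (0.268 and 1.11 FPKM, 1.72), Cyp2d26 (0.573 and 1.66 FPKM, 1.39) and Cyp2d9 (0.369 and 1.02 FPKM, 1.26). All 3 reached 1 FPKM in HFD-ncls alone and so could enter the comparison only by being higher with ncls. At HFD-ncls they stood at 0.386%, 0.293% and 0.136% of their liver level, and the 17 hepatocyte transcripts at 0.177% to 0.493%. With the liver share subtracted from each library, all 3 were below 1 FPKM in both libraries and left the comparison: Cyp2a5 stood at 0 and 0.432 FPKM and Cyp2d26 at 0.101 and 0.323 FPKM, still over 2-fold higher on the log2(FPKM + 0.1) scale, and Cyp2d9 at 0 in both. Of the members more abundant in WAT, Cyp2e1 differed by -0.10, Cyp4v3 by -0.01, Cyp4b1 by 0.21, Cyp2s1 by -0.23 and Cyp2d22 by 0.49.

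In BAT the leading members were Cyp2e1, Cyp4b1, Cyp2d22, Cyp4v3 and Cyp2b10. With diet 1 of 13 members was over 2-fold higher and 1 lower, beside 2.28% and 2.01% of 10444 genes. Cyp4b1, which hydroxylates short and medium-chain fatty acids, stood at 21.9 FPKM in NCD-veh and 45.2 in HFD-veh (1.04), and Cyp2e1 at 75.1 and 16.3 FPKM (-2.19). With ncls none of 13 members passed 2-fold in either direction, beside 0.261% of 10331 genes higher and 1.70% lower, with Cyp2e1 at 25.2 FPKM and Cyp4b1 at 36.6 FPKM. Cyp2e1 was thus lower in HFD-veh than in NCD-veh in both fat depots and higher in liver, and whether these differ was not tested. Cyp2b10 was expressed in BAT, at 15.5, 12.8 and 17.4 FPKM, and not at more than 1.17 FPKM in liver. In BAT Cyp2b13 followed at 0.888, 0.655 and 1.19 FPKM, while Cyp2b9 stood at 0.0391 FPKM or less. Cyp2b13 shares 87.2% of its coding bases with Cyp2b10, and its expression in BAT apart from shared reads was not tested. The BAT libraries also differed in muscle transcripts, with Ckm at 248, 120 and 17.7 FPKM, while the hepatocyte share was at most 0.00161%.

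In muscle, 12 of 17 members were over 2-fold higher in HFD-veh than in NCD-veh and none lower, beside 3.14% and 0.970% of 9587 genes. With ncls 12 of 18 were over 2-fold lower and 1 higher, beside 2.53% and 1.27% of 9694 genes. The 12 members were the same in both comparisons. Apart from Cyp2e1 they reached 1 FPKM in HFD-veh muscle alone. They could thus enter the comparisons only by being higher with diet and lower with ncls. The members concerned were for the most part abundant in liver: Cyp2d9 stood at 0.0265 FPKM under NCD-veh, 4.10 under HFD-veh and 0.0566 under HFD-ncls, Cyp2d26 at 0.0383, 4.13 and 0.0535, and Cyp3a11 was listed at 0, 1.83 and 0 FPKM. The 38 members with at least 10 FPKM in HFD-veh liver stood in HFD-veh muscle at a median of 0.60% of their liver level, and 27 of them lay within the range of the 17 hepatocyte transcripts, 10 above and 1 below. With the liver share subtracted, 6 and 7 members still reached 1 FPKM in the diet and ncls comparisons, and of those none was over 2-fold higher with diet and none over 2-fold lower with ncls. Over the same 17 and 18 members as before subtraction, 4 were over 2-fold higher with diet and the same 4 over 2-fold lower with ncls, all of them below 1 FPKM: in HFD-veh muscle Cyp2c29 stood at 0.603, Cyp2d26 at 0.623, Cyp2a5 at 0.392 and Cyp3a25 at 0.401 FPKM. Before subtraction Cyp2c29, Cyp2d26 and Cyp2a5 lay within the hepatocyte range, and Cyp3a25 lay above it.

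**Figure D4:**
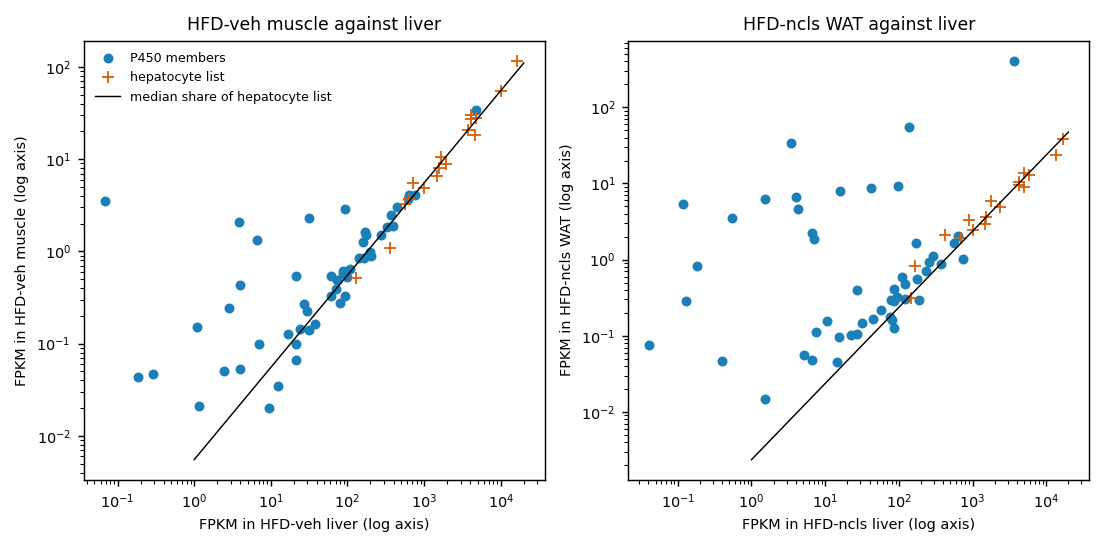
FPKM in HFD-veh muscle against HFD-veh liver (left) and in HFD-ncls WAT against HFD-ncls liver (right), both on log axes, for the members (blue circles) and the hepatocyte transcripts (orange crosses); values of 0 are not drawn. The black line is the median share of the hepatocyte list, 0.553% on the left and 0.236% on the right, and most members abundant in liver lie along it, while Cyp2e1, Cyp4v3 and Cyp4b1 lie far above it in WAT.

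The muscle value of Cyp2e1 depended on this subtraction. Cyp2e1 stood at 15.3 FPKM under NCD-veh, 33.9 under HFD-veh and 7.27 under HFD-ncls in muscle, a difference of 1.14 with diet. After subtraction of the liver share, the median of 0.553% in HFD-veh, the values were 15.2, 7.47 and 7.25 FPKM. At that share its direction with diet turned to lower (-1.02). Single hepatocyte transcripts ranged from 0.308% to 0.759%, and Cyp2e1 itself stood at 0.709% of its liver level in HFD-veh muscle. Its direction after subtraction therefore depended on the share taken and is not settled by these values. How liver transcripts came into the library was not tested. In the muscle libraries with little liver RNA few members reached 1 FPKM, 6 in NCD-veh and 7 in HFD-ncls. Cyp4f39, which makes ultra-long-chain omega-hydroxy fatty acids, stood at 4.97, 3.50 and 4.07 FPKM in muscle and at most 0.453 FPKM in the fat libraries, Cyp2d22 at 2.53, 2.89 and 2.39 FPKM and Cyp2u1 at 1.31, 1.33 and 1.39 FPKM. The only member over 2-fold higher with ncls was Cyp4f17, at 0.955, 0.435 and 1.23 FPKM (1.31), which was near the limit of 1 FPKM in all 3 libraries. It reached that limit in HFD-ncls alone and so could enter the ncls comparison only by being higher.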

How the data were processed

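Per the labels, total RNA was extracted with TRIzol and sequenced from Illumina libraries. The authors used TopHat for alignment (mm9 build) and deposited FPKM values per RefSeq gene from Cufflinks, with 1 library in each of 12 groups and no counts. From these FPKM values, differences were computed as log2(FPKM + 0.1) between 2 libraries of an organ for genes at 1 FPKM or more in at least 1 of them, and a gene was called past 2-fold. With no replicates there is no test. The calculation was tested on simulated data. Fragment numbers were estimated from the smallest steps of FPKM values over 8025 single-transcript genes, and cover no more than counting error. The liver share of a library was the median percentage, over 17 hepatocyte transcripts, of its FPKM relative to the liver library of the same diet and agent. Coding bases came from GENCODE and promoter windows from RefSeq (GRCm38.p6), located by exact match to mm9, where each matched once. Of the 53 members, 52 had a coding sequence and 44 a promoter window. Alb had no value in liver, Myh4 none in muscle, and Cyp4f14 none in NCD-veh and HFD-ncls liver, and they were left out there.

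Genes were named when they were among the 10 members highest in liver, among those furthest past 2-fold, among the 5 highest in another organ, in a list of known function, or, for other genes, past 2-fold in liver. Cyp2a22, Cyp2c67, Cyp2c68, Cyp2c70, Cyp4f18, Por, Nr1i2, Nr1i3, Hnf4a, Apoa1, Cd68, Lep, Atp6v0d2, Cyp4a12a and Ckm were added after their values were seen. The members and lists were chosen with earlier results of these data known. Python 3.11.15, numpy 2.4.6, pandas 2.3.3 and matplotlib 3.10.9 were used.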

Additional observations from a re-analysis of the deposited data

Results flagged for a closer look

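In 6 members the difference under the same comparison pointed in opposite directions in 2 or more organs, each past 2-fold on the log2(FPKM + 0.1) scale. These contrasts between organs were not tested. With diet, Cyp2e1 differed by -1.26 in WAT and -2.19 in BAT and by 1.14 in muscle, Cyp2f2 by -3.26 in WAT and 2.37 in muscle, and Cyp3a11 by -1.82 in liver and 4.27 in muscle. With ncls, Cyp2a5 differed by 1.72 in WAT and -4.68 in muscle, Cyp2d26 by 1.39 and -4.78, and Cyp2d9 by 1.26 and -4.75. Each of these pairs includes HFD-veh muscle, the library with hepatocyte transcripts at 0.553% of their liver level. Apart from Cyp2e1, these members reached 1 FPKM in muscle only in HFD-veh, which fixed their direction there. In WAT, Cyp2a5, Cyp2d26 and Cyp2d9 did so only in HFD-ncls. With the liver share subtracted, Cyp2e1 stood at 15.2 FPKM in NCD-veh and 7.47 in HFD-veh muscle, Cyp2f2 at 0.621 and 0.326 FPKM, and Cyp3a11 at 0 and 0.00374 FPKM. In the ncls comparison, Cyp2a5 was then at 0 and 0.432 FPKM in WAT and at 0.392 and 0 FPKM in muscle. Cyp2d26 was at 0.101 and 0.323 FPKM in WAT and at 0.623 and 0.0504 FPKM in muscle. Both kept opposite directions past 2-fold, below 1 FPKM. Before subtraction they stood at 0.658% and 0.651% of their liver level in HFD-veh muscle (hepatocyte transcripts 0.308% to 0.759%). In HFD-ncls WAT they stood at 0.386% and 0.293% (0.177% to 0.493%). Subtracting a median leaves a remainder for any gene above it, and expression of these 2 genes in WAT or muscle was not tested. Cyp2d9 was at 0 in both WAT libraries and at 0 and 0.0524 FPKM in muscle.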

How the results depend on the processing

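Rescaling the libraries by their median ratio kept every count within 1.5 times, and adding Cyp4a10 and Cyp4a14 or raising the limit to 5 FPKM did so for the liver counts, except that 3 rather than 6 members were lower with ncls at 5 FPKM. A pseudocount of 1 moved 62 of 237 differences of single members and turned the direction of none, whereas rescaling turned 5 small ones, among them Cyp2c44 in liver with ncls. Without a limit on FPKM, members below 1 FPKM entered: 1 was then higher in liver with ncls and 1 between HFD-ncls and NCD-veh, where the median became -0.19, in WAT 13 were higher and 5 lower with diet and 21 higher and 1 lower with ncls, in BAT 2 were lower with diet and 2 with ncls, and in muscle 32 were higher with diet and 32 lower with ncls. With a pseudocount of 1, 0 members were higher in WAT with diet, 0 in WAT with ncls and 0 in muscle with ncls. With the liver share subtracted, fewer members reached 1 FPKM (14 in WAT with ncls, 6 and 7 in muscle with diet and ncls), and of those 0 were higher in WAT with ncls, 0 higher and 1 (Cyp2e1) lower in muscle with diet, and 0 lower in muscle with ncls. Over the same members as before subtraction, an alternative chosen after seeing the data, 2 of 18 were higher in WAT with ncls, 4 of 17 higher and 1 lower in muscle with diet, and 4 of 18 lower in muscle with ncls. Leaving out the 14 members over 95% identical in coding sequence, an alternative chosen after seeing the data, moved the liver median with ncls to -0.15 and the number lower between HFD-ncls and NCD-veh to 5. That cut kept Cyp3a11, Cyp3a16 and Cyp3a44 (92.5% to 94.9% identical) and Cyp2b9 and Cyp2b13 (92.5%), so it could not address shared reads among them. Taking all genes over 100 FPKM in liver in place of the hepatocyte list gave a share of 0.00276% in NCD-veh and 0.00238% in HFD-veh BAT, and 0.00363% in NCD-veh and 0.00117% in HFD-ncls muscle. The alternative that would leave out members by protein identity was not run, since protein sequences were not used here. No paired analysis was possible because each group had 1 library and no replicate numbers. Values below about 0.1 FPKM in liver rest on a few fragments and limit every fold of Cyp2b9 and Cyp2b13.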
